A study of Mus musculus with 19 samples.

Results

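The ISG15 system and the IFI27 group are 10 interferon-stimulated genes whose products modify, restrain or act within the interferon response: *Isg15*, *Usp18*, *Uba7*, *Herc6*, *Ifi27*, *Ifi27l2a*, *Ifi44*, *Rtp4*, *Xaf1* and *Bst2*. Members were taken by gene name, as the rows of the count table whose Ensembl identifier carries 1 of these names in GENCODE M21, and all 10 were found among 41128 rows. All 10 also passed the filter on low counts, which kept 16841 genes. The lowest count of a member in any library was 5 reads, for *Ifi44* in a WT striatum library.

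The cerebellum, the striatum and the prefrontal cortex were taken from C57BL/6 mice, 3 months old, that were either SCA17 knock-in (KI) or age-matched wild type (WT). The KI mice carry an expanded CAG repeat in their own *Tbp* gene, the repeat behind spinocerebellar ataxia type 17, and TBP is the TATA box-binding protein. The allele is present from the germline onwards and in all tissues, since a floxed line was first crossed with EIIa-Cre mice and its offspring with WT mice, so the mice do not separate an effect arising in neurons from one arising in glia or vessels. Cerebellar RNA gave 3 WT and 4 KI libraries, and each of the other regions gave 3 WT and 3 KI libraries, 19 in all. Each library is a bulk sample of a dissected region, so more cells of a type and more RNA per cell cannot be told apart.

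ISG15 is a ubiquitin-like protein that interferon induces and that cells attach to newly made proteins, a process called ISGylation. UBA7 is the activating enzyme (E1) of that chain, UBE2L6 the conjugating enzyme (E2) and HERC6 the main ligase (E3) in mice, while USP18 is the protease that takes ISG15 off again and also binds the interferon receptor and dampens its signal. Type I interferons act through the receptor IFNAR1/IFNAR2, the kinases JAK1 and TYK2 and a complex of STAT proteins with IRF9, which binds interferon-stimulated response elements (ISREs) in promoters. IFI27 and its mouse relative IFI27L2A are small membrane proteins of mitochondria and the nuclear envelope, XAF1 is a partner of the apoptosis inhibitor XIAP, and BST2 (tetherin) holds budding viruses at the cell surface.

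Library totals ran from 10639110 to 17431284 counts, with a median of 15082703, and libraries of a group differed by more than sampling noise in all 21 pairs. Markers of the labelled region were highest in the region's own libraries for the cerebellum, striatum and cortex lists. The summed level of the 6 striatal markers was 8165 to 9498 CPM in WT and 4233 to 6235 CPM in KI striatum, and 0 of the 6 passed the test by edgeR or DESeq2, with 1 at an unadjusted p under 0.05 in edgeR. In prefrontal cortex their sums were 243 to 685 CPM in WT and 149 to 909 CPM in KI. All 6 fold changes were positive there (median log2 0.72), with 0 called by edgeR or DESeq2. The sum of the 6 cerebellar markers was 5924 to 6341 CPM in WT and 4176 to 5383 CPM in KI cerebellum, where 5 of the 6 had a negative fold change and the Purkinje cell gene *Pcp2* was called lower (log2 -1.16, edgeR adjusted p = 1.96e-04), 2 by DESeq2 and 3 at an unadjusted p under 0.05 in edgeR. The part of these differences in the values of the 10 genes was not tested. Choroid plexus genes varied widely among cerebellum libraries, from 9.73 to 4868 CPM in sum over the KI group. Their sums were 1539 to 8877 CPM in WT and 4211 to 7143 CPM in KI striatum, and 48.2 CPM or less in prefrontal cortex. The part of choroid plexus in the members' values was not tested either. CPM is a gene's count scaled to a common library total, with edgeR's TMM factors.

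Promoter sequences are shown for 3 members because they show what the promoters share and what they do not. RefSeq's table for GRCm38.p6 held an entry for 6 of the 10 members (*Isg15*, *Uba7*, *Herc6*, *Ifi44*, *Xaf1* and *Bst2*). Each entry runs from 250 bases before to 50 bases after the transcription start and is written 5′ to 3′ on the strand of the gene. Capitals mark the ISRE core, spelled GAAA, any 2 bases, GAAA, and neighbouring matches that share 4 bases are capitalised as a single run.
Isg15 (chr4:156200769-156201068, minus strand): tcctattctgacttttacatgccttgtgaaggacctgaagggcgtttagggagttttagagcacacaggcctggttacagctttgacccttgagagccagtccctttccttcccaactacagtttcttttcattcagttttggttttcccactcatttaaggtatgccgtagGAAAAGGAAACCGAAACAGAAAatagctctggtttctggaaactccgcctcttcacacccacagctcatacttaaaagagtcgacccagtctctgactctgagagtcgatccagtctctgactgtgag
Bst2 (chr8:71537423-71537722, minus strand): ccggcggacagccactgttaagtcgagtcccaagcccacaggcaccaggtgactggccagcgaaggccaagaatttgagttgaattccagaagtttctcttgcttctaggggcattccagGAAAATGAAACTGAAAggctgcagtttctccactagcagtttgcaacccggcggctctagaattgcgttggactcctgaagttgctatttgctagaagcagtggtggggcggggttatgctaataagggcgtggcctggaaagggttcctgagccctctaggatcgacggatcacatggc
Ifi44 (chr3:151749861-151750160, minus strand): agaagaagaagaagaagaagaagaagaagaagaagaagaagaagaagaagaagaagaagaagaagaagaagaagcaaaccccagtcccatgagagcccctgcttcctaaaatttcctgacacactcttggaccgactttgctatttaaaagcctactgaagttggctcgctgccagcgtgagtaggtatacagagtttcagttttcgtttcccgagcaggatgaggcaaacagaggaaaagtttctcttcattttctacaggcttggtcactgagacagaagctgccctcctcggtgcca
The *Isg15* promoter held 3 overlapping ISRE cores, from 78 to 57 bases before the start, and the *Bst2* promoter held 2, from 130 to 115 bases before it. The other 4 promoters had 0 exact matches on either strand in this window, *Ifi44* among them. Stretches that differ from the core in a letter or in its spacing were not counted, so an ISRE may still be present. Over all 32851 promoters of the table, 3.44% held the core. A stricter core with C as the fifth base was found in the same pair of members and in 0.685% of all promoters. TATAAA, the letters bound by TBP itself, was in 0 of the 6 promoters and in 13.6% of all. GGGCGG, the GC box bound by SP1, was in *Bst2* and *Xaf1* and in 35.7% of all promoters. Both strands were searched for each motif, and a match in letters describes the window only.

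The comparison of KI with WT mice asked which genes the repeat expansion alters in each region. In the cerebellum and in the striatum all 10 members were higher in KI mice by edgeR's quasi-likelihood F test (Benjamini-Hochberg adjusted p under 0.05), where 0.517% of tested genes were called higher in the cerebellum and 0.392% in the striatum. In the prefrontal cortex 4 of the 10 were called higher, *Usp18*, *Ifi27l2a*, *Ifi44* and *Rtp4*, against 0.0891% of tested genes. The prefrontal count was 0 with that region fitted alone, and 1 without KI replicate 3, WT replicate 1 or WT replicate 2. The striatal count was 5 with that region fitted alone and 6 without KI replicate 3, WT replicate 2 or WT replicate 3, and the cerebellar count was 6 without WT replicate 2. None of the 10 was called lower in a region by edgeR or DESeq2. In edgeR 0.315%, 0.190% and 0.0178% of tested genes were called lower in cerebellum, striatum and prefrontal cortex. Over the members the median log2 fold change was 2.39 in cerebellum, 2.55 in striatum and 1.66 in prefrontal cortex, beside 0.01, -0.01 and 0.00 over all tested genes. *Isg15*, *Usp18*, *Ifi27*, *Ifi27l2a*, *Ifi44* and *Rtp4* are also on the study's own list of genes raised in every region, which was chosen on these samples, so their direction is not independent evidence. All 10 members were chosen with earlier results of these data known. Their counts beside the shares over all genes are therefore not independent evidence either.

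The separation of libraries gave a similar count. Every KI library lay above every WT library for 10 of 10 members in cerebellum, 10 of 10 in striatum and 8 of 10 in prefrontal cortex, beside 5.82%, 5.65% and 4.38% of all tested genes. The exceptions were *Uba7* and *Herc6* in the prefrontal cortex. All 10 fold changes were positive there, where the median over all tested genes was 0.00. Of the 10, 8 had an unadjusted p under 0.05 in edgeR's test, beside 998 of 16841 tested genes.

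**Figure D1:**
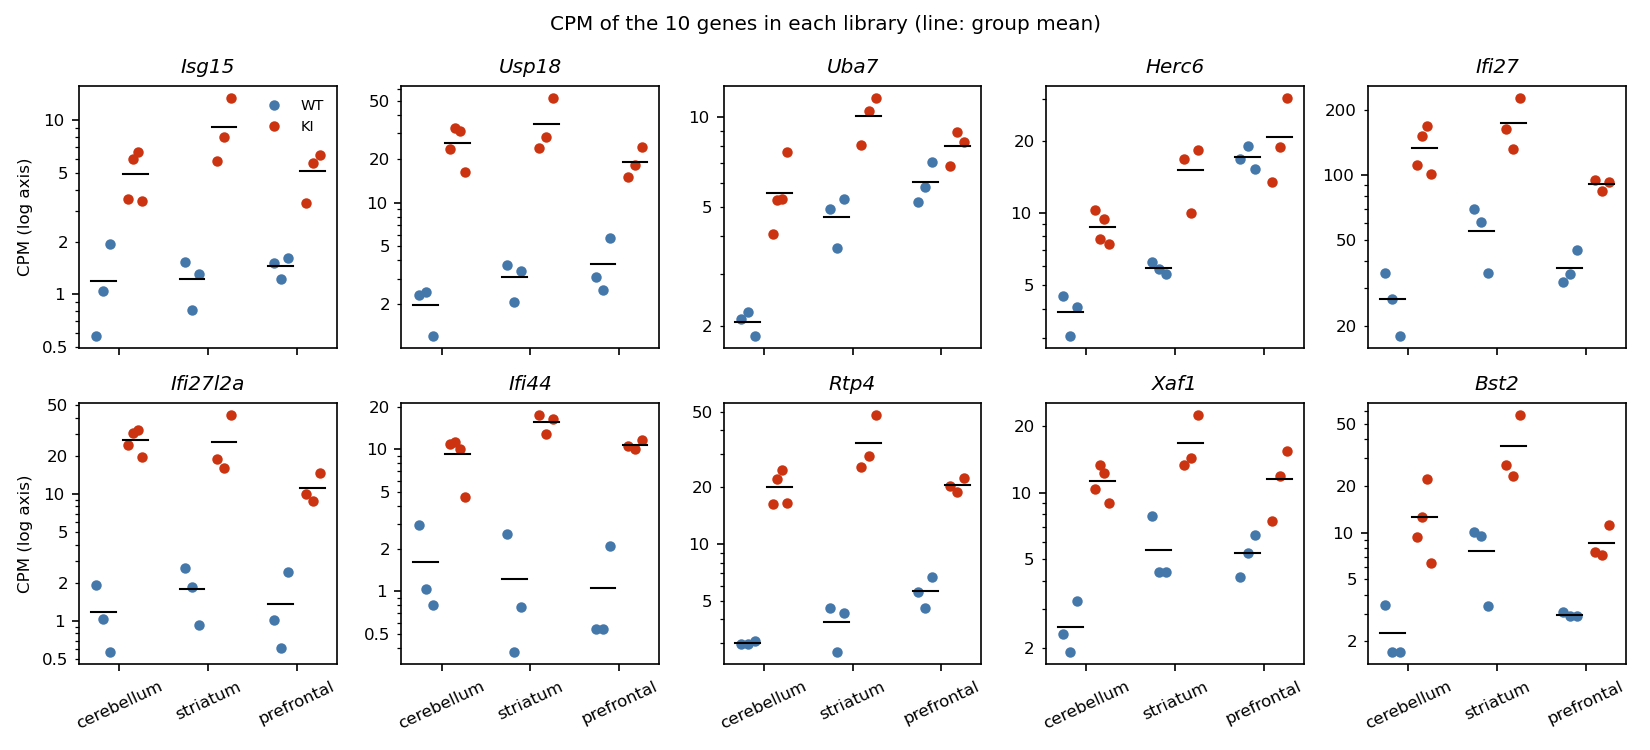
CPM on a log axis for each of the 10 genes, with 1 point per library, WT in blue and KI in red, and a line at each group mean. KI and WT points are apart in each panel and region, except for *Uba7* and *Herc6* in the prefrontal cortex, where the points overlap.

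*Isg15* (ENSMUSG00000035692, chromosome 4, 156199424 to 156200818, minus strand in GENCODE M21) encodes the modifier itself. In WT mice it stood at 0.578, 1.05 and 1.94 CPM in the 3 cerebellum libraries, 1.54, 0.818 and 1.31 in striatum and 1.51, 1.22 and 1.62 in prefrontal cortex. KI libraries held 3.55, 6.04, 6.61 and 3.45 CPM in the cerebellum, 5.88, 7.99 and 13.5 in striatum and 3.33, 5.69 and 6.29 in prefrontal cortex. The groups did not overlap in any region, and striatum KI replicate 3 was the highest of the 19 libraries. The log2 fold change was 2.07 in the cerebellum (SE 0.412, edgeR adjusted p = 0.0198) and 2.89 in the striatum (SE 0.431, edgeR adjusted p = 0.00310). In the prefrontal cortex it was 1.80 (95% interval 0.91 to 2.69), which missed the threshold (edgeR adjusted p = 0.223). The cerebellar call was lost without cerebellum KI replicate 2 or 3 or WT replicate 1 or 2 (log2 1.73 to 2.59 over the 7 libraries left out, edgeR adjusted p up to 0.124), and DESeq2 called the prefrontal difference (adjusted p = 0.0164).

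*Usp18* (ENSMUSG00000030107, chromosome 6, 121245906 to 121270917, plus strand), the ISG15 protease and receptor brake, had a larger fold change than *Isg15*, *Uba7* and *Herc6* in all 3 regions. WT libraries held 2.31, 2.42 and 1.21 CPM in the cerebellum, 3.74, 2.08 and 3.40 in striatum and 3.08, 2.51 and 5.66 in prefrontal cortex. In KI mice the values were 23.4, 32.5, 30.9 and 16.3 CPM in the cerebellum, 23.8, 28.1 and 52.4 in striatum and 14.9, 18.1 and 23.9 in prefrontal cortex. The lowest KI library of each region exceeded the highest WT library of that region. *Usp18* rose 12.8-fold in the cerebellum (log2 3.67, SE 0.392, edgeR adjusted p = 1.26e-04) and 11.3-fold in the striatum (log2 3.49, SE 0.390, edgeR adjusted p = 1.98e-04). In the prefrontal cortex it rose 5.03-fold (log2 2.33, SE 0.376, edgeR adjusted p = 0.0158). The prefrontal call was lost without prefrontal KI replicate 3 or WT replicate 1 or 2 (log2 2.11 to 2.76 over the 6 libraries left out, edgeR adjusted p up to 0.121), and in a fit of that region alone (edgeR adjusted p = 0.216).

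*Uba7* (ENSMUSG00000032596, chromosome 9, 107975505 to 107984060, plus strand), the activating enzyme, changed less. Its WT values were 2.12, 2.23 and 1.86 CPM in the cerebellum, 4.94, 3.64 and 5.33 in striatum and 5.20, 5.84 and 7.08 in prefrontal cortex, and its KI values were 4.05, 5.27, 5.32 and 7.62, then 8.04, 10.5 and 11.6, then 6.85, 8.92 and 8.23 CPM. In the prefrontal cortex 2 of 3 KI libraries were above all WT libraries and the third fell within the WT range. The log2 fold change was 1.42 in the cerebellum (SE 0.229, edgeR adjusted p = 0.00337), 1.11 in striatum (SE 0.227, edgeR adjusted p = 0.0317) and 0.40 in prefrontal cortex, with a 95% interval of -0.07 to 0.88. An exon of *Uba7* shares 233 bases with *Gm20661* on the same strand, which has 60 counts over all libraries beside 1691 for *Uba7*. *Usp18*, *Herc6* and *Rtp4* share 124, 1269 and 296 exon bases with predicted genes that had 0 counts, and how reads in shared bases were counted is not given in the sources used here. The striatal call of *Uba7* was lost without striatum KI replicate 2 or 3 or WT replicate 1, 2 or 3 (log2 0.97 to 1.25 over the 6 libraries left out, edgeR adjusted p up to 0.211).

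*Herc6* (ENSMUSG00000029798, chromosome 6, 57581000 to 57664632, plus strand), the ligase, had the smallest fold change of the 10 in the cerebellum and prefrontal cortex. WT mice had 4.50, 3.08 and 4.04 CPM in the cerebellum, 6.28, 5.87 and 5.56 in striatum and 16.8, 19.1 and 15.3 in prefrontal cortex. KI mice had 10.3, 7.82, 9.41 and 7.44 CPM in the cerebellum, 16.9, 10.0 and 18.3 in striatum and 13.5, 18.9 and 30.3 in prefrontal cortex. The WT prefrontal cortex was thus already near the KI striatum, and there 1 of 3 KI libraries was above all WT libraries and another below all of them. On the log2 scale the change was 1.17 in the cerebellum (SE 0.260, edgeR adjusted p = 0.0410) and 1.35 in the striatum (SE 0.266, edgeR adjusted p = 0.0245). The prefrontal value of 0.28 had an interval of -0.25 to 0.82 and changed sign, to -0.078, without prefrontal KI replicate 3. The cerebellar call did not hold without cerebellum KI replicate 1, 2 or 3 or WT replicate 1, 2 or 3 (log2 1.03 to 1.30 over the 7 libraries left out, edgeR adjusted p up to 0.238), nor the striatal one without striatum KI replicate 1 or 3 or WT replicate 1, 2 or 3 (log2 1.19 to 1.57 over the 6 libraries left out, edgeR adjusted p up to 0.157).

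*Ifi27* (ENSMUSG00000064215, chromosome 12, 103434211 to 103440239, plus strand) was the most abundant member per length. It stood at 35.2, 26.7 and 18.0 CPM in WT cerebellum, 69.7, 60.4 and 35.2 in WT striatum and 31.9, 34.9 and 45.0 in WT prefrontal cortex. The KI libraries held 112, 152, 169.7 and 102 CPM in the cerebellum, 165, 133 and 229 in striatum and 94.8, 84.4 and 93.3 in prefrontal cortex. No KI library overlapped the WT range of its region. Its log2 fold change was 2.33 in the cerebellum (SE 0.272, edgeR adjusted p = 1.96e-04), 1.67 in striatum (SE 0.272, edgeR adjusted p = 0.00648) and 1.29 in prefrontal cortex, where it did not pass (SE 0.273, edgeR adjusted p = 0.118). DESeq2 called the prefrontal difference (adjusted p = 0.00119), as did edgeR with no filter beyond 1 count.

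*Ifi27l2a* (ENSMUSG00000079017, chromosome 12, 103442167 to 103443680, minus strand) lies beside *Ifi27* on the opposite strand, 1927 bases away in GENCODE M21. RefSeq's GRCm38.p6 table gives *Ifi27l2a* a longer span, 103433873 to 103443680, that takes in the whole of *Ifi27*, and the use of strand in the counting is not given in the sources used here. WT values were 1.93, 1.05 and 0.566 CPM in the cerebellum, 2.60, 1.86 and 0.927 in striatum and 1.03, 0.611 and 2.43 in prefrontal cortex. KI values were 24.5, 30.5, 32.0 and 19.7 CPM in the cerebellum, 19.0, 16.2 and 42.4 in striatum and 10.1, 8.84 and 14.7 in prefrontal cortex. The groups were far apart in each region, with the lowest KI library above the highest WT library, and the folds were the largest of the 10 in the cerebellum and striatum. They came to 22.0-fold in the cerebellum (95% interval on the log2 scale 3.40 to 5.52, edgeR adjusted p = 1.52e-04), 14.2-fold in striatum (interval 2.79 to 4.86, edgeR adjusted p = 5.72e-04) and 8.18-fold in prefrontal cortex (interval 1.98 to 4.09, edgeR adjusted p = 0.0168). WT counts were low, 7 reads in the lowest library, so the folds are less precise than that of *Ifi27*. In the prefrontal cortex the call was lost without prefrontal KI replicate 3 or WT replicate 1 or 2 (log2 2.68 to 3.76 over the 6 libraries left out, edgeR adjusted p up to 0.122), and with that region fitted alone (edgeR adjusted p = 0.233).

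*Ifi44* (ENSMUSG00000028037, chromosome 3, 151730922 to 151749960, minus strand), a cytoplasmic protein induced by interferon, had few WT reads. WT libraries held 2.96, 1.05 and 0.809 CPM in the cerebellum, 2.54, 0.372 and 0.773 in striatum and 0.548, 0.543 and 2.09 in prefrontal cortex. KI libraries held 11.0, 11.3, 10.1 and 4.59 CPM in the cerebellum, 17.6, 12.8 and 16.3 in striatum and 10.6, 10.1 and 11.7 in prefrontal cortex. In each region a single WT library stood well above the other WT libraries, yet below all KI libraries. The log2 fold change was 2.50 in the cerebellum (SE 0.550, edgeR adjusted p = 0.0390), 3.63 in striatum (SE 0.595, edgeR adjusted p = 0.00679) and 3.34 in prefrontal cortex (SE 0.600, edgeR adjusted p = 0.0379). The prefrontal value was the largest of the 10 in that region. The call in the cerebellum was lost without cerebellum KI replicate 1, 2 or 3 or WT replicate 2 or 3 (log2 2.20 to 3.30 over the 7 libraries left out, edgeR adjusted p up to 0.227). That in the prefrontal cortex was lost without prefrontal KI replicate 1, 2 or 3 or WT replicate 1 or 2 (log2 3.02 to 4.29 over the 6 libraries left out, edgeR adjusted p up to 0.160), and with the region fitted alone (edgeR adjusted p = 0.227).

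*Rtp4* (ENSMUSG00000033355, chromosome 16, 23520291 to 23614222, plus strand), a receptor transporter protein induced by interferon, had the smallest adjusted p of the 10 in each region. Its WT libraries held 2.96, 2.95 and 3.07 CPM in the cerebellum, where they were nearly equal, and 4.61, 2.68 and 4.33 in striatum and 5.62, 4.61 and 6.67 in prefrontal cortex. The KI libraries held 16.4, 22.2, 24.8 and 16.6 CPM in the cerebellum, 25.5, 29.1 and 48.4 in striatum and 20.4, 18.8 and 22.3 in prefrontal cortex. It rose 6.67-fold in the cerebellum (log2 2.74, SE 0.253, edgeR adjusted p = 2.32e-05), 8.85-fold in striatum (log2 3.15, SE 0.259, edgeR adjusted p = 1.32e-05) and 3.63-fold in prefrontal cortex (log2 1.86, SE 0.247, edgeR adjusted p = 0.00305). *Rtp4* was the one member whose call held in all 3 regions when any single library of the region was left out, with edgeR adjusted p up to 0.0475 in the prefrontal cortex. With the prefrontal cortex fitted alone its adjusted p there was 0.144 in edgeR.

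*Xaf1* (ENSMUSG00000040483, chromosome 11, 72301629 to 72313733, plus strand) stood at 2.31, 1.90 and 3.24 CPM in WT cerebellum, 7.81, 4.38 and 4.40 in WT striatum and 4.18, 5.36 and 6.47 in WT prefrontal cortex. In KI mice it reached 10.4, 13.4, 12.3 and 9.01 CPM in the cerebellum, 13.3, 14.3 and 22.5 in striatum and 7.45, 11.9 and 15.4 in prefrontal cortex. KI and WT libraries did not overlap, though the lowest prefrontal KI library was close to the highest WT library. Its log2 fold change was 2.19 in the cerebellum (SE 0.310, edgeR adjusted p = 9.35e-04), 1.59 in striatum (SE 0.304, edgeR adjusted p = 0.0209) and 1.11 in prefrontal cortex (SE 0.304, edgeR adjusted p = 0.434). Of the partner list of XAF1, the apoptosis inhibitors *Xiap*, *Birc2*, *Birc3* and *Birc5*, 0 of 4 passed in a region by edgeR or DESeq2, 0 also at an unadjusted p under 0.05, and their log2 fold changes lay between -0.27 and 0.32. The striatal call was lost without striatum KI replicate 3 or WT replicate 2 or 3 (log2 1.31 to 1.93 over the 6 libraries left out, edgeR adjusted p up to 0.149).

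*Bst2* (ENSMUSG00000046718, chromosome 8, 71534255 to 71537456, minus strand) varied 3.49-fold between the lowest and the highest KI cerebellum library, the widest spread of the 10 there. WT values were 3.41, 1.70 and 1.70 CPM in the cerebellum, 10.2, 9.44 and 3.40 in striatum and 3.08, 2.92 and 2.90 in prefrontal cortex. KI values were 9.34, 12.6, 22.1 and 6.35 CPM in the cerebellum, 27.0, 23.2 and 57.2 in striatum and 7.45, 7.19 and 11.1 in prefrontal cortex. Striatum WT replicate 3 was well below the other WT striatum libraries, and striatum KI replicate 3 well above the other KI ones. As a log2 fold change the difference was 2.46 in the cerebellum (SE 0.480, edgeR adjusted p = 0.0165), 2.22 in striatum (SE 0.461, edgeR adjusted p = 0.0325) and 1.52 in prefrontal cortex (SE 0.488, edgeR adjusted p = 0.583). Its cerebellar call was lost without cerebellum WT replicate 2 or 3 (log2 2.04 to 2.89 over the 7 libraries left out, edgeR adjusted p up to 0.121) and its striatal call without striatum KI replicate 1 or 3 or WT replicate 1, 2 or 3 (log2 1.71 to 2.48 over the 6 libraries left out, edgeR adjusted p up to 0.230).

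**Figure D2:**
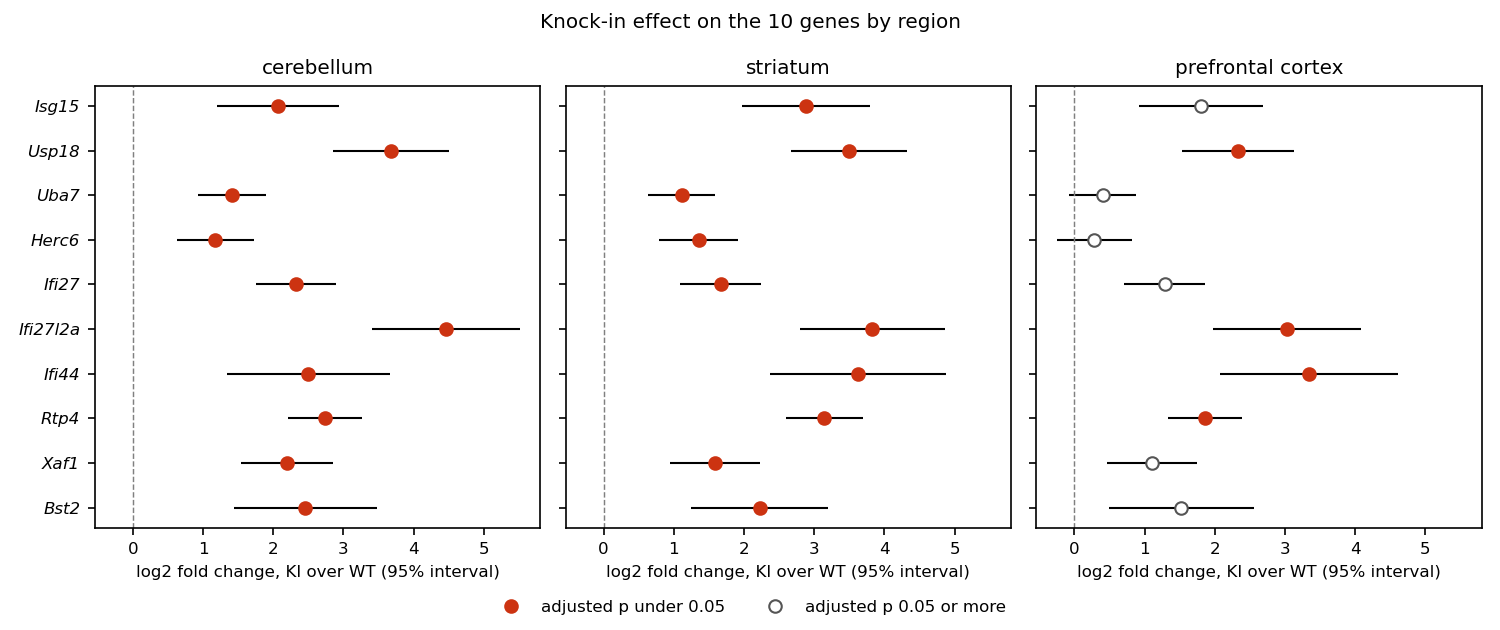
Log2 fold change of KI over WT for each gene and region, with 95% intervals, filled where the adjusted p was under 0.05. All 10 are filled in the cerebellum and striatum, and 4 in the prefrontal cortex, where the intervals of *Uba7* and *Herc6* cross 0.

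Single libraries carried part of these differences. Striatum KI replicate 3 was the highest of its group for 9 of 10 members, and prefrontal KI replicate 3 for 8 of 10, while cerebellum KI replicate 4 was the lowest for 8 of 10. Same-numbered libraries of the striatum and prefrontal cortex were taken as paired, so the counts for replicate 3 are not separate observations. Striatum WT replicate 1 was the highest WT library of its region for 9 of 10. Without striatum KI replicate 3, *Isg15*, *Usp18*, *Ifi27*, *Ifi27l2a*, *Ifi44* and *Rtp4* kept their striatal call in edgeR, and *Uba7*, *Herc6*, *Xaf1* and *Bst2* had log2 fold changes of 1.00, 1.19, 1.31 and 1.71 that no longer passed. Counts of *Xist* (1341 and 734) showed the replicate 3 libraries of the striatum and prefrontal cortex to be the female ones of their KI groups, the other KI libraries there holding 16 or fewer. Striatum WT replicate 1 was male, with 15 *Xist* counts, and WT replicates 2 and 3 there were female, with 1153 and 1051. Prefrontal WT replicate 3, the highest WT library there for 8 of 10 members, was female, with 1328. Female libraries were 2 of 3 in each WT group, 2 of 4 in KI cerebellum and 1 of 3 in KI striatum and KI prefrontal cortex. A fit with sex as a covariate, read from *Xist* against Y-linked counts, called 10, 10 and 4 members in cerebellum, striatum and prefrontal cortex, as many as without it. That fit gives all regions the same sex effect. KI striatum and KI prefrontal cortex each hold 1 female library, so sex and that library cannot be told apart there. The part of sex in the members' values was not tested.

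**Figure D3:**
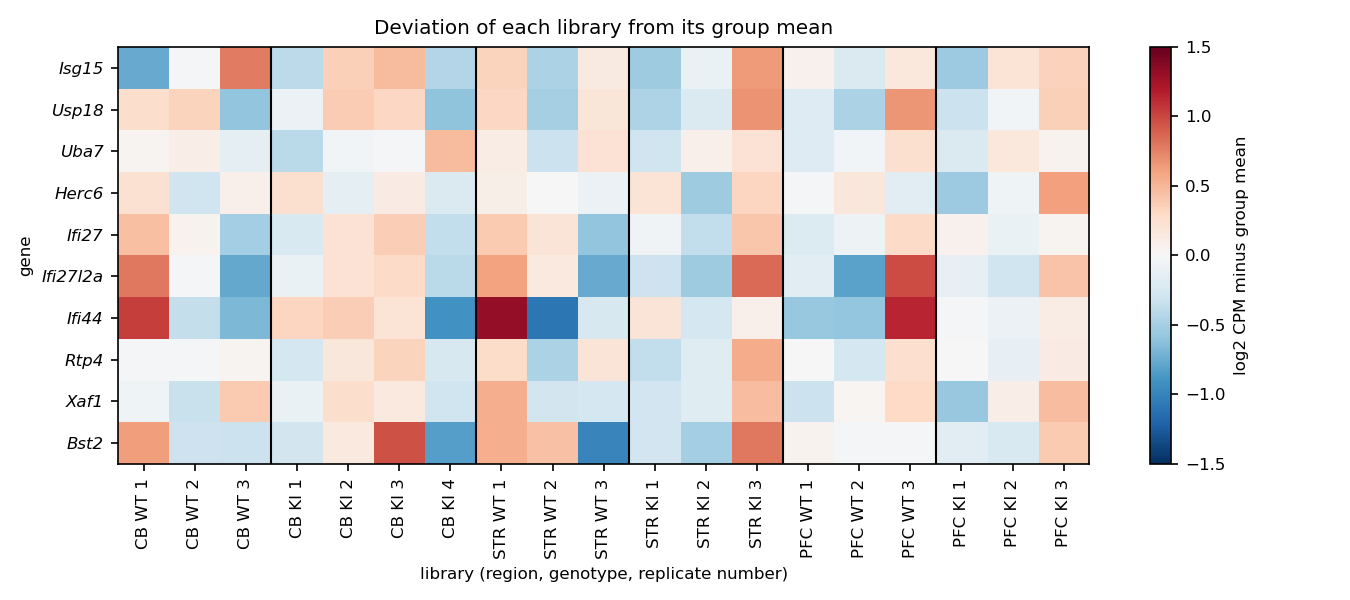
Log2 CPM minus the group mean for each gene (rows) in each library (columns), red above and blue below the mean, with black lines between groups. Striatum KI replicate 3 is above its group mean for all 10 genes, and *Ifi44* in WT libraries shows the strongest colours.

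The size of the KI effect was compared between regions with interaction tests in the same fit. That fit treats the libraries as independent and does not pair same-numbered striatum and prefrontal cortex libraries. The effect of 0 members differed at an adjusted p under 0.05 in edgeR between cerebellum and striatum (0.0119% of tested genes), between cerebellum and prefrontal cortex (0.0178%) or between striatum and prefrontal cortex (0%), and DESeq2 also called 0 in each. A member called in the cerebellum and not in the prefrontal cortex is therefore not shown to differ between them. At an unadjusted p under 0.05 in edgeR there were 0 of 10 members for cerebellum against striatum (6.69% of genes), 6 for cerebellum against prefrontal cortex (6.12%) and 4 for striatum against prefrontal cortex (4.41%). *Usp18*, *Uba7*, *Herc6* and *Rtp4* were in both of the latter counts, and *Ifi27* and *Xaf1* in the comparison with the cerebellum alone.

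For *Uba7*, the KI effect in the cerebellum exceeded that in the prefrontal cortex by 1.02 on the log2 scale (95% interval 0.34 to 1.69, edgeR adjusted p = 0.562). For *Rtp4*, the effect in the striatum exceeded that in the prefrontal cortex by 1.28 (interval 0.55 to 2.02, edgeR adjusted p = 0.942), and for *Herc6* by 1.07 (interval 0.30 to 1.84, edgeR adjusted p = 1.00). The striatal effect was the larger in 10 of 10 members and the cerebellar effect in 9 of 10, *Ifi44* being the exception, when each was set against the prefrontal cortex. These comparisons share the prefrontal libraries and members varied together within groups, so the signs are not 10 separate results. Over the members the median difference from the prefrontal cortex was 0.75 for striatum and 0.98 for cerebellum, beside -0.004 and 0.008 over all genes. The share of all genes in each direction was not computed.

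Levels in WT mice also differed by region. Between WT cerebellum and WT striatum 4 members were called by edgeR, *Uba7*, *Ifi27*, *Xaf1* and *Bst2*, all lower in the cerebellum, where 56.5% of tested genes differed in either direction. Between cerebellum and prefrontal cortex *Uba7*, *Herc6*, *Rtp4* and *Xaf1* were lower in the cerebellum, beside 52.0% of genes. Between striatum and prefrontal cortex *Herc6* was lower in the striatum (log2 difference -1.53, SE 0.266, edgeR adjusted p = 3.19e-04) and *Bst2* higher (1.37, SE 0.487, edgeR adjusted p = 0.0417), beside 30.5% of genes. The shares of members called were below these shares over all genes. The largest of these differences was that of *Herc6* between cerebellum and prefrontal cortex, at -2.14 (SE 0.275, edgeR adjusted p = 5.36e-06), with WT means of 3.87 ± 0.725 and 17.1 ± 1.93 CPM (SD, n = 3 each). Choroid plexus sums also differed by region, with WT medians of 31.1 CPM in cerebellum, 6751 in striatum and 18.7 in prefrontal cortex. Their part in the WT differences was not tested.

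Between genes, levels were compared as CPM per kilobase of exon. In WT cerebellum *Ifi27* stood at 18.1 ± 5.83 (SD, n = 3), followed by *Ifi27l2a* at 2.55 ± 1.49 and *Bst2* at 2.51 ± 1.09, whose ranges overlapped. *Isg15* (1.57 ± 0.916) and *Rtp4* (1.40 ± 0.0329) came next, and *Usp18*, *Xaf1*, *Herc6*, *Uba7* and *Ifi44* were each below 1 CPM per kilobase. In KI cerebellum *Ifi27* remained first, at 91.3 ± 22.0 (SD, n = 4), with *Ifi27l2a* at 57.7 ± 12.2. *Usp18* reached 9.23 ± 2.68 there against 6.50 ± 2.18 for *Isg15*, where the WT order of this pair was the reverse (0.711 ± 0.240 against 1.57 ± 0.916), with SDs that overlap in KI and in WT. The enzymes *Uba7* and *Herc6* were the lowest members of KI cerebellum, at 0.832 ± 0.222 and 0.941 ± 0.145 CPM per kilobase.

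Among the 9 listed partners that conjugate or remove ISG15 besides the members, 1 rose in the cerebellum, 1 in striatum and 0 in prefrontal cortex, and 0 fell by edgeR's test. DESeq2 called 2, 2 and 1. *Trim25*, a ligase that can attach ISG15, rose by 1.43 in the cerebellum (SE 0.234, edgeR adjusted p = 0.00394), with 0.87 in striatum and 0.99 in prefrontal cortex. *Ube2l6*, the E2, rose by 1.12 in the striatum (SE 0.211, edgeR adjusted p = 0.0208), with 0.67 in the cerebellum and 0.08 in the prefrontal cortex, so the prefrontal values of the E1, E2 and E3 were 0.40, 0.08 and 0.28. The deubiquitinating enzymes *Usp14*, *Usp5* and *Usp21*, which can also bind ISG15, had log2 fold changes between -0.12 and 0.15. The list's median was 0.00 for cerebellum, -0.06 for striatum and 0.08 for prefrontal cortex.

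Of 7 tested genes of type I interferon signalling, 2 rose in the cerebellum, 3 in striatum and 2 in prefrontal cortex, and 0 fell by edgeR's test. *Irf7*, which drives interferon genes, and *Irf9*, the DNA-binding part of the STAT complex, rose in all 3 regions, *Irf7* by 3.16, 3.10 and 2.25 on the log2 scale and *Irf9* by 2.33, 2.03 and 1.47. *Stat2* rose by 0.52 in the striatum (SE 0.0987, edgeR adjusted p = 0.0209), with -0.22 in the cerebellum and 0.42 in the prefrontal cortex. The receptor genes *Ifnar1* and *Ifnar2* and the kinases *Jak1* and *Tyk2* were not called, with values between -0.23 and 0.20. *Ifnb1*, the interferon-beta gene, had 0 counts in all 19 libraries, which allows up to 0.282 CPM in the shallowest one, a limit of 3 counts that covers counting error only. The 14 rows named as *Ifna* genes or *Ifnb1*, a set looked up after the data were seen, had 0 counts in all libraries.

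Among 9 tested genes of other interferon-induced effectors, 6 rose in the cerebellum, 5 in striatum and 0 in prefrontal cortex, with list medians of 1.48, 1.51 and 0.79. In the prefrontal cortex 7 of the 9 had an unadjusted p under 0.05 in edgeR and DESeq2 called 1. *Irgm1*, an immunity-related GTPase, rose by 2.00 and 1.99, and the RNA sensor *Ddx58* by 1.50 and 1.80, in the cerebellum and striatum. *Eif2ak2*, *Ifih1* and *Rsad2* rose in the same pair of regions and *Mx2* in the cerebellum. Of 10 tested paralogs of the members, 0 were called in a region by edgeR or DESeq2, with 1 or 2 per region at an unadjusted p under 0.05 in edgeR. The ligases *Herc1*, *Herc2* and *Herc3* and the ubiquitin E1 *Uba1* had values between -0.23 and 0.22. *Ifi44l*, the paralog of *Ifi44*, averaged 0.0214 and 0.657 CPM in WT and KI cerebellum (log2 4.41, SE 1.66, edgeR adjusted p = 0.339), 0.0668 and 0.998 CPM in striatum (log2 3.64, SE 1.42, edgeR adjusted p = 0.452) and 0.159 and 0.640 CPM in prefrontal cortex (log2 2.01, SE 1.28, edgeR adjusted p = 0.912). *Ifi27l2b* averaged 0.850 and 0.137 CPM in WT and KI striatum (log2 -2.55, SE 0.757, edgeR adjusted p = 0.266), lower in KI. It averaged 0.0214 and 0.0291 CPM in WT and KI cerebellum and 0 in prefrontal cortex. How reads common to paralogs were counted is not given in the sources used here.

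**Figure D4:**
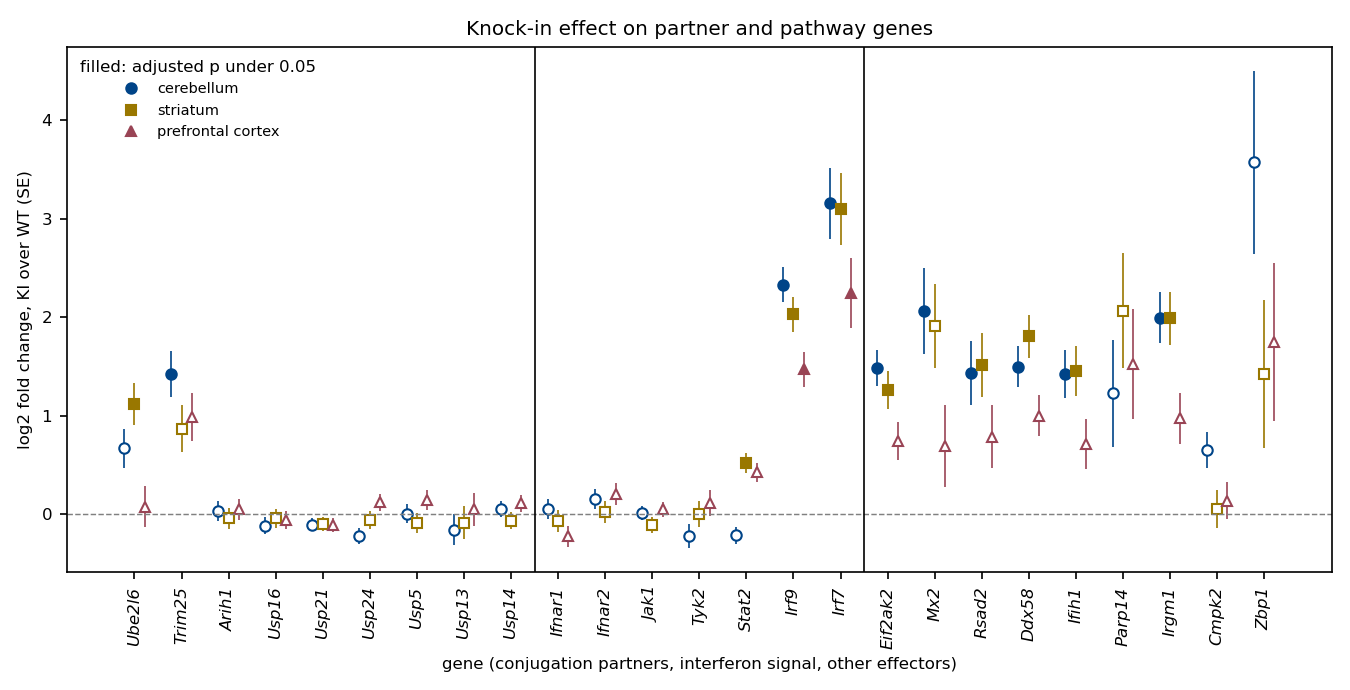
Log2 fold change of KI over WT, with SE bars, for tested partners of ISG15 conjugation, interferon signalling genes and other effectors, separated by vertical lines and filled where the adjusted p was under 0.05. *Irf7* and *Irf9* are filled in all 3 regions, while the receptor, kinase and deubiquitinating enzyme genes lie near 0.

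Markers of cells that respond to interferon were read beside these values. The summed level of 7 microglia markers was 80.6 to 82.1 CPM in WT and 114 to 158 CPM in KI cerebellum, a ratio of medians of 1.62, and 4 of the 7 passed edgeR's test and 6 DESeq2's. On the log2 scale *Aif1* rose by 1.33 (SE 0.233, edgeR adjusted p = 0.00673) and the complement gene *C1qa* by 1.28 (SE 0.140, edgeR adjusted p = 1.39e-04), with 0.71 for *Csf1r* and 0.58 for *Cx3cr1*. The 7 markers ran from 0.22 to 1.33 with a median of 0.76, and *Aif1* and *C1qa* were the highest of them. Member log2 fold changes in that region ran from 1.17 to 4.46. Those of *Herc6* (1.17) and *Uba7* (1.42) lay near the values of *C1qa* and *Aif1* and above the marker median. In the striatum the microglia sums overlapped, 395 to 460 CPM in WT and 404 to 429 in KI, and in the prefrontal cortex they were 377 to 425 and 341 to 403, with 0 of 7 markers called by edgeR or DESeq2 in each, and 2 and 1 at an unadjusted p under 0.05 in edgeR. The ratio of medians of KI over WT was 1.06 in striatum and 0.931 in prefrontal cortex. The part of microglia in the members' values was not tested in any region.

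Endothelial markers gave 344 to 374 CPM in WT and 388 to 407 CPM in KI cerebellum in sum, and 0 of 6 passed in a region by edgeR, at an unadjusted p under 0.05 also, or by DESeq2. Of 6 markers listed for blood-derived leukocytes, 3 could be tested. *Siglech*, which microglia also express, made up most of the list's sum and was higher in KI cerebellum, at 6.08 and 9.76 CPM in WT and KI means (log2 0.68, edgeR adjusted p = 0.0341). In the same pair of groups *Ccr2* averaged 0.323 and 0.353 CPM and *Ly6c2* 0.0218 and 1.35 CPM (edgeR adjusted p = 0.451). *Ly6c2* was lower in KI striatum (log2 -4.28, edgeR adjusted p = 0.598) and KI prefrontal cortex (log2 -5.19, edgeR adjusted p = 0.792). The log2 fold changes of *S100a8* were 0.86 in cerebellum, 0.80 in striatum and -2.88 in prefrontal cortex, with 0 called by edgeR. At an unadjusted p under 0.05 in edgeR there were 2, 1 and 2 of the 3 tested genes in cerebellum, striatum and prefrontal cortex. The T cell genes *Cd3e* and *Cd8a* averaged at or below 0.186 CPM in each group, with *Cd8a* at 0 in KI striatum. The list's sum was 6.63 to 7.33 CPM in WT and 9.97 to 16.5 in KI cerebellum. In the striatum the sums overlapped, at 26.8 to 42.2 CPM in WT and 36.8 to 41.1 in KI. They also overlapped in the prefrontal cortex, at 35.4 to 37.1 and 30.9 to 38.0 CPM. Astrocyte and oligodendrocyte lists had 0 of 5 and 0 of 4 genes called in each region by edgeR or DESeq2, and red blood cell and choroid plexus lists 0 of 4 each. At an unadjusted p under 0.05 in edgeR these lists had 0, apart from 1 red blood cell gene in the striatum. Whether any of these cells carried the member transcripts was not tested.

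Genes with the pattern most like the members were found by Pearson correlation with the mean standardised log2 CPM of the 10, over the 19 libraries. On levels, the 5 most similar were *Gbp3* (r = 0.985), *Irf7*, *Ifitm3*, *Irgm2* and *Oasl2* (r = 0.959). These libraries share the difference between KI and WT, which both sides follow. On deviations from the group means, which leave that difference out, they were *Gbp3* (r = 0.889), *Ifit1*, *Ifi35*, *Ifitm3* and *Twf1* (r = 0.833), and by Spearman's rho 2 of the 5 on levels and 4 of the 5 on deviations were the same. Members varied together within groups to unequal degrees: over 45 pairs the median r of deviations was 0.43, from -0.17 to 0.87, and 43 were positive. *Ifi27* and *Ifi27l2a* gave the highest value, and *Uba7*, with a median of 0.15 with the other members, the lowest median. Deviations in a library also share its depth and dissection, and no test was made of these correlations.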

How the data were processed

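Messenger RNA of 19 mouse libraries was made into cDNA with SMART-Seq v4 and Nextera XT kits and sequenced on an Illumina HiSeq instrument. The submitters' processing notes name bcl2fastq 2.17.1.14, STAR 2.5.2b, HTSeq, DESeq2 1.10.1 and the build GRCm38.p3, and the methods name Cufflinks and Cuffdiff. Settings, annotation, handling of reads that match several places and use of strand are not given in the sources used here, so values of overlapping genes and close copies carry that limit. The authors deposited raw counts for 41128 genes, with no normalization. The deposited signal table holds those counts divided by 1 size factor per library and was used to check this and, as an alternative without a test, for ratios of group means.

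Names, positions and exon lengths came from GENCODE M21, which held 40254 of the identifiers. In R 4.3.3, edgeR 4.0.16 was run on the counts with TMM scaling, filterByExpr over the 6 groups of region and genotype (16841 genes left), 1 quasi-likelihood fit of all libraries (residual degrees of freedom 13) and Benjamini-Hochberg adjustment over all tested genes with a threshold of 0.05. SEs were the log2 fold change divided by the root of F. Log2 CPM used a prior count of 2. The fit was tested on simulated counts. Alternatives were DESeq2 1.42.0, DESeq2 size factors, other count filters, each region alone, replicate blocks, a sex covariate and each library left out.

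The methods give 3 or 4 mice per genotype, and the labels do not tie libraries to mice. Same-numbered striatum and prefrontal cortex libraries of a genotype deviated together in all 6 pairs (r from 0.233 to 0.368) and agreed in sex, so the numbers were taken to pair those regions. KI and WT libraries are not paired by number.

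The 10 members and the gene lists were chosen with earlier results of these data known. Some genes of these lists are not reported here and were left out of their counts and sums. All members are given values. From each list, genes called in at least 1 region and up to 4 of the most abundant others were named, from marker lists at most 4 of the first genes listed, and for likeness the 5 highest correlations. *Ifi27l2b*, *Ifi44l*, *Siglech*, *Aif1*, *C1qa* and *Ly6c2* were named outside this rule, after their values were seen.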

Additional observations from a re-analysis of the deposited data

How the results depend on the processing

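Of the tested values for single members and regions under other settings, 351 kept their direction and their side of the threshold, 66 kept the direction but no longer passed, 3 passed newly and 1 changed sign, *Herc6* in the prefrontal cortex at -0.078 without KI replicate 3 (edgeR adjusted p = 0.984, log2 fold changes from -0.078 to 0.522 over the libraries left out). The count of members called higher was 10 in the cerebellum (6 to 10 with 1 library left out at a time, 6 without cerebellum WT replicate 2), 10 in the striatum (6 to 10, 6 without KI replicate 3, WT replicate 2 or WT replicate 3) and 4 in the prefrontal cortex (1 to 4, 1 without KI replicate 3, WT replicate 1 or WT replicate 2). A fit of each region alone called 5 members in striatum and 0 in prefrontal cortex. With at least 10 counts asked in every library, 2 were called in the prefrontal cortex, where 7 of the 10 members could be tested. A block for the replicate number inside each region left 5 called in striatum and 2 in prefrontal cortex, 2 differed between WT cerebellum and WT striatum, and 0 between WT striatum and WT prefrontal cortex, where the count was 2 and ranged from 1 to 3 with a library left out. KI and WT libraries with the same number shared no clear deviation (2 of 9 correlations over 0.1), so that block tests only a shared number. The block that pairs striatum with prefrontal cortex libraries by number, chosen after the data were seen, left 0 interactions and 2 WT differences. DESeq2 called 10, 10 and 6 members in cerebellum, striatum and prefrontal cortex. Shares over all tested genes under DESeq2 and the other settings are not given here, so these counts have none beside them. Interaction counts were 0 under every setting run. Low WT counts, from 5 reads for *Ifi44*, limit the fold changes of *Isg15*, *Ifi27l2a* and *Ifi44*. The log2 ratio of group means in the authors' normalized table, which has no test, lay within 1 SE of the fitted value in all 30 cases. The cause of the changed counts was not tested.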
